A study of Homo sapiens with 14 samples.

Results

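The genes described here are 35 genes known for neurons and for regulated secretion, chosen by name with earlier results of these data known: proteins of hormone granules, of synaptic vesicles, of the neuronal cytoskeleton, of cell adhesion and of neuronal RNA handling. Of the 35, 34 had an Ensembl gene ID in the deposited table of 18006 genes, and 23 of these averaged above 1 CPM (counts scaled to a common library total) over the 14 libraries. ELAVL3 was not analysed here. The libraries were made with a stranded mRNA kit from HEK 293, a line from human embryonic kidney that is known to express many genes otherwise typical of neurons. They fall into 5 groups: CFIm68 knockdown (3 libraries), CFIm25 knockdown (2), CFIm68 overexpression (3), CFIm25 overexpression (3) and wild-type control (3). CFIm25 and CFIm68 are subunits of the cleavage factor that binds UGUA motifs in nascent transcripts and so helps to choose where a messenger RNA is cut and polyadenylated. They are encoded by NUDT21 and CPSF6, and the series asks what happens to gene expression when either is reduced with siRNA or overexpressed. The labels state siRNA transfection for every library, control included, but they name neither the siRNA that the control received nor the promoter or clonality of the overexpressing cells. The labels do not say whether replicates were separate cultures, so a p-value here refers to the variation among these libraries, possibly technical.

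Neurons and endocrine cells release signals from 2 kinds of vesicle. Dense-core granules carry peptides packed with chromogranins and secretogranins, and small synaptic vesicles carry transmitter. Both fuse with the cell membrane through SNARE proteins, with synaptotagmins as sensors of calcium and RAB3 proteins as tethers. Outside the nervous system many of the same genes are held silent by REST, a repressor that binds the RE1 element in their promoters.

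Between 15822467 and 33895308 reads were counted to genes per library, and libraries of a group correlated at 0.993 to 0.997 (log2 CPM, across genes). NUDT21 averaged 232 ± 9.27 CPM in CFIm68 knockdown, 53.8 ± 1.2 in CFIm25 knockdown, 597 ± 47.9 in CFIm68 overexpression, 729 ± 55.6 in CFIm25 overexpression and 514 ± 19.6 in control (SD, n = 2 for CFIm25 knockdown and 3 otherwise). CPSF6 averaged 41.6 ± 0.995 CPM in CFIm68 knockdown, 533 ± 10.2 in CFIm25 knockdown, 730.0 ± 17.4 in CFIm68 overexpression, 252 ± 13.3 in CFIm25 overexpression and 268 ± 5.78 in control (SD). Each knockdown had less of its own subunit, and the other subunit differed too. CPSF6 was higher in CFIm25 knockdown (log2 0.99 ± 0.05, adjusted p = 1.65e-14, edgeR) and NUDT21 lower in CFIm68 knockdown (log2 -1.14 ± 0.06, adjusted p = 1.89e-15). Of 10 markers of HEK 293 and embryonic kidney, 8 averaged above 1 CPM, among them SALL1 and PAX2. PAX8, at 0 to 1 counts per library, and LHX1 did not. Of 6 markers of mature kidney tubule in the table, LRP2 and CUBN averaged above 1 CPM, and SLC34A1 and AQP2 were listed at 0. The 6 together summed to 177 to 178 CPM in CFIm68 knockdown, 167 to 188 in CFIm25 knockdown, 186 to 199 in CFIm68 overexpression, 151 to 165 in CFIm25 overexpression and 164 to 185 in control. Of 7 mature-neuron markers in the table only SLC17A7 averaged above 1 CPM, and SLC17A6 and GAD1 were listed at 0. The 7 together summed to 1.85 to 2.25 CPM in CFIm68 knockdown, 1.86 to 2.31 in CFIm25 knockdown, 2.06 to 2.51 in CFIm68 overexpression, 1.7 to 2.49 in CFIm25 overexpression and 1.7 to 2.35 in control. Of 10 adrenal and chromaffin markers only CHGA, itself one of the 35 genes, averaged above 1 CPM, and TH was listed at 0. Of 7 glial markers, S100B and AQP4 averaged above 1 CPM and MBP was listed at 0. The summed level of the list was 4.4 to 5.87 CPM in CFIm68 knockdown, 4.19 to 4.99 in CFIm25 knockdown, 1.32 to 1.82 in CFIm68 overexpression, 1.87 to 2.84 in CFIm25 overexpression and 2.66 to 2.79 in control. Of 5 keratinocyte markers only KRT17 did, with a summed level of 9.79 to 14.3 CPM in CFIm68 knockdown, 4.94 to 7.04 in CFIm25 knockdown, 2.39 to 2.82 in CFIm68 overexpression, 10.2 to 13.3 in CFIm25 overexpression and 3.94 to 4.42 in control. Of 6 mesenchymal markers, COL1A1 and LUM did and COL1A2 and DCN were listed at 0. The summed level of the list was 65.5 to 68.2 CPM in CFIm68 knockdown, 52.7 to 57.5 in CFIm25 knockdown, 24.9 to 28.4 in CFIm68 overexpression, 46.6 to 53.7 in CFIm25 overexpression and 50.5 to 54.8 in control. KRT17 was higher in CFIm25 overexpression (log2 1.53 ± 0.15, adjusted p = 2.49e-09, edgeR) and lower in CFIm68 overexpression (log2 -0.67 ± 0.21, adjusted p = 0.0154). It was also called higher in CFIm68 knockdown (log2 1.54) and in CFIm25 knockdown (log2 0.50) by edgeR. None of 6 blood markers averaged above 1 CPM over the 14 libraries. CD14, the 1 blood marker tested, was at 1.69, 1.39 and 2.01 CPM in CFIm68 overexpression and 0.624, 0.71 and 0.887 in control. It was called higher in CFIm68 overexpression (log2 1.18) and lower in CFIm68 knockdown (log2 -1.45) by edgeR. The part of these marker genes in the results below was not tested. In bulk RNA, fewer cells that express a gene and less RNA per cell cannot be told apart.

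Per length, the genes spanned a wide range of levels. BEX1, a small adaptor protein of neural cells, averaged 845 TPM (counts scaled to gene length and library total), and UCHL1, an abundant neuronal deubiquitinase, averaged 718 TPM. They stood above 99.2% and 99.0% of the genes in the table. NEFL, the light neurofilament chain, averaged 244 TPM, and the SNARE protein VAMP2 averaged 153 TPM. The microtubule-destabilising STMN3 (61.1 TPM) and the adhesion protein PCDH19 (42.4 TPM) came next, while the granule proteins CHGB, SCG3 and CHGA averaged 6.17, 5.65 and 5.14 TPM. By group, 23 genes averaged above 1 CPM in CFIm68 knockdown, 23 in CFIm25 knockdown, 21 in CFIm68 overexpression, 22 in CFIm25 overexpression and 23 in control. The 2 genes that were above this level in some groups only were SCG5 and SYN1.

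**Figure D1:**
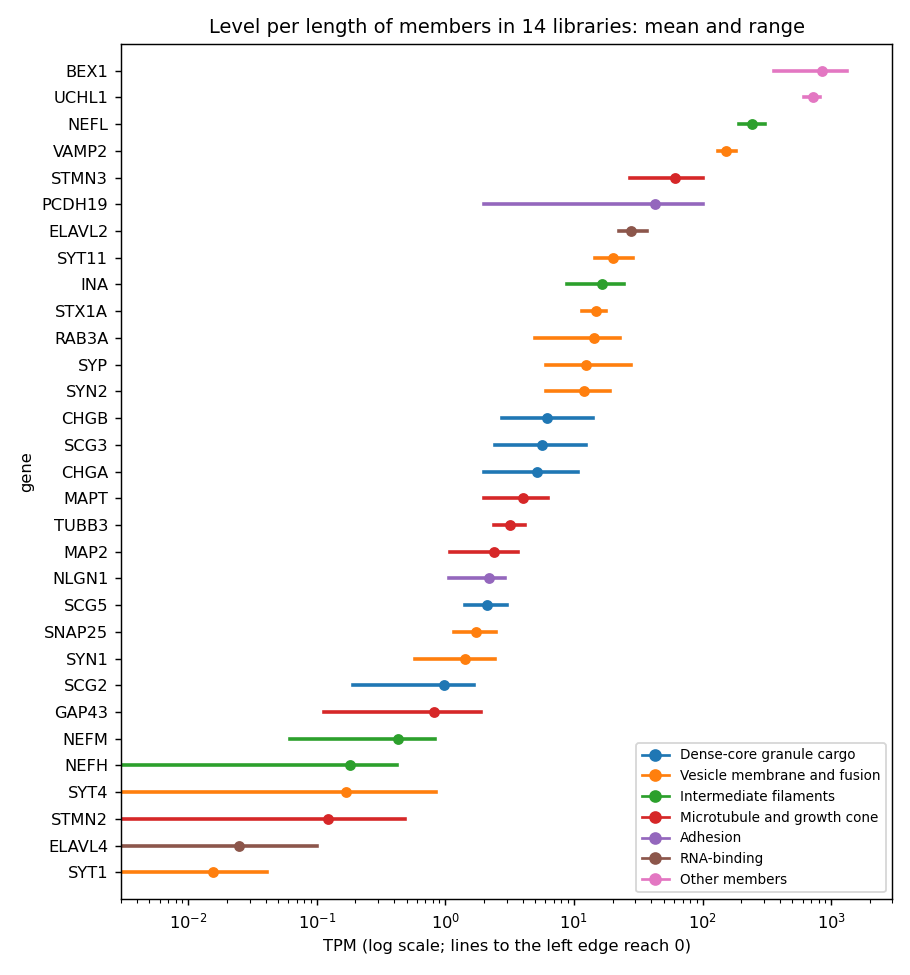
Level per length of the 31 genes with any count, in TPM on a log axis, with a point at the mean of the 14 libraries, a line from the lowest to the highest library and colours for the role of the gene. BEX1, UCHL1, NEFL and VAMP2 lie highest, and among genes above 1 CPM the line of PCDH19 is the longest.

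The other 11 genes in the table were at or under 1 CPM. SCG2 had 3 to 18 counts per library, NEFM 1 to 25 and GAP43 1 to 21, and these 3 passed the filter on low counts. SYT1 had 0 to 1 counts per library, SYT4 0 to 14, NEFH 0 to 9, STMN2 0 to 6 and ELAVL4 0 to 3, too few to test. DCX, NCAM1 and NRCAM were listed at 0 in every library, and 3 counts, the limit that a count of 0 allows, correspond to 0.0898 to 0.195 CPM depending on the library. HSPA8, KLF6 and MAP4, which most cells express, were also listed at 0 throughout, so a 0 in this table cannot be read as absence of the transcript. SYT1, the calcium sensor of synaptic vesicles, and STMN2, a marker of growing axons, thus lay near the limit of counting in this table. Whether such low counts reflect the level of the transcripts in these cells was not tested.

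Of the 26 genes that could be tested, 23 differed among the 5 groups (edgeR quasi-likelihood test, Benjamini-Hochberg adjusted p under 0.05), but so did 88.2% of all 12080 genes tested. In CFIm68 knockdown against control, 10 were higher and 6 were lower, 38.5% and 23.1% of the 26 genes against 28.3% and 28.1% of all tested genes, and the median log2 change was 0.16. In CFIm25 knockdown against control, 10 were higher and 3 were lower, 38.5% and 11.5% of the 26 genes against 24.4% and 23.2% of all tested genes, with a median of 0.15. Without replicate 1 of the CFIm25 knockdown, 8 calls were made there in place of 13, CHGB, GAP43, NLGN1, UCHL1 and VAMP2 being lost. In CFIm68 overexpression against control, 1 was higher and 9 were lower, 3.8% and 34.6% of the 26 genes against 14.5% and 15.4% of all tested genes, with a median of -0.25. In CFIm25 overexpression against control, 13 were higher and 3 were lower, 50% and 11.5% of the 26 genes against 27.7% and 29.1% of all tested genes, with a median of 0.35. Summed over both directions, 61.5% of the 26 genes were called in CFIm68 knockdown, 50% in CFIm25 knockdown, 38.5% in CFIm68 overexpression and 61.5% in CFIm25 overexpression, against 56.4%, 47.6%, 29.8% and 56.7% of all tested genes. Each of these sums was within 10 percentage points of its background. By direction, the share higher lay above the background and the share lower under it in both knockdowns and in CFIm25 overexpression, and the reverse held in CFIm68 overexpression. The list thus lay toward lower values in CFIm68 overexpression and toward higher values in CFIm25 overexpression, while over all tested genes the medians of these comparisons lay between 0.00 and 0.01. Since the list was chosen with earlier results of these data known, these shifts only describe it. The 4 comparisons share the same control libraries. In CFIm68 against CFIm25 overexpression, 3 were higher and 17 were lower, 11.5% and 65.4% of the 26 genes against 32.9% and 30.8% of all tested genes, with a median of -0.61. In CFIm68 against CFIm25 knockdown, 4 were higher and 4 were lower, 15.4% and 15.4% of the 26 genes against 11.1% and 13.2% of all tested genes, with a median of -0.05. In either direction 30.8% of the list and 24.2% of all tested genes were called.

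**Figure D2:**
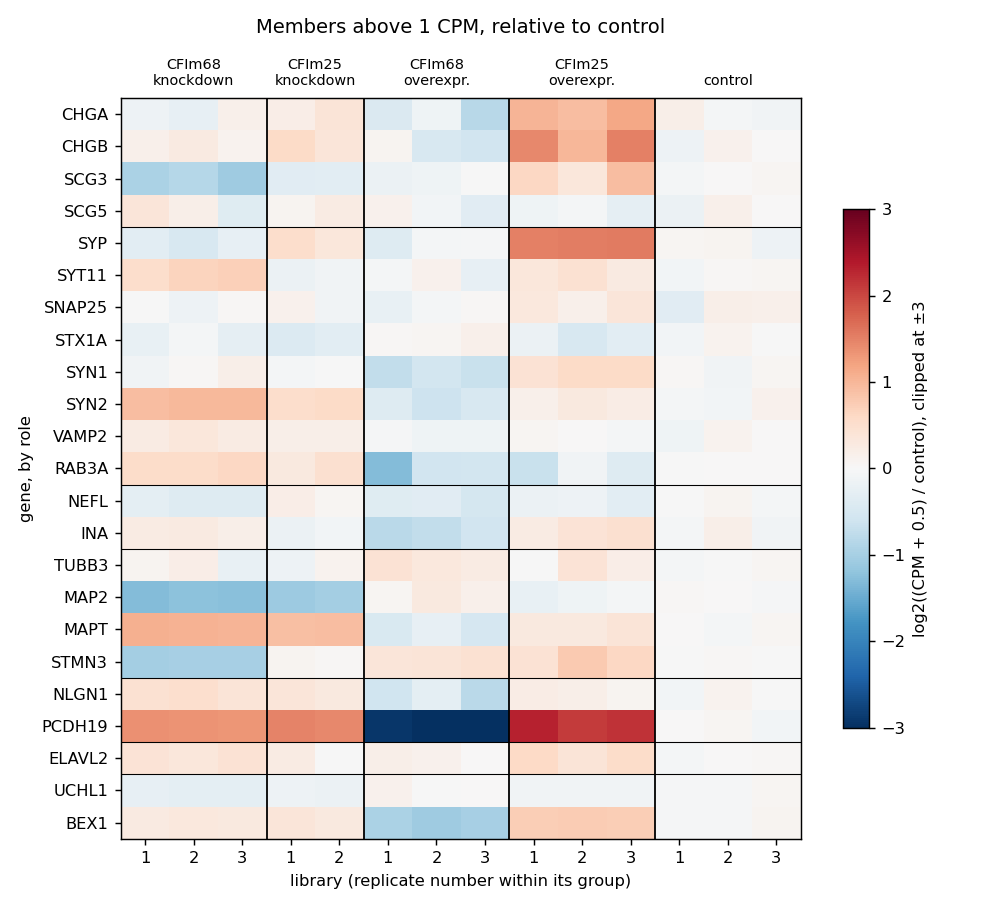
Each of the 23 genes above 1 CPM (rows, by role) in each of the 14 libraries (columns, by group), coloured by log2 of CPM + 0.5 over the control mean, red for higher and blue for lower, clipped at ±3. SYP, CHGA and CHGB are red in all 3 CFIm25 overexpression libraries, MAP2 is blue in both knockdowns, and PCDH19 is blue in CFIm68 overexpression and red in the other treated groups.

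The cargo of dense-core granules was highest in CFIm25 overexpression. The summed level of CHGA, CHGB, SCG2, SCG3 and SCG5 was 23.4 to 31.7 CPM per library there, against 13.1 to 14 in control. CHGA (ENSG00000100604, chromosome 14, 92923080 to 92935293, hg38), chromogranin A, the main soluble protein of these granules, was at 2.62, 2.43 and 3.36 CPM in CFIm68 knockdown, 3.5 and 4.04 in CFIm25 knockdown, 2.08, 2.67 and 1.44 in CFIm68 overexpression and 6.56, 6.11 and 7.3 in CFIm25 overexpression. In control, CHGA was at 3.4, 2.84 and 2.72 CPM. The 3 CFIm25 overexpression libraries lay above all the others. CHGA rose there 2.23-fold, with a log2 change (± SE) of 1.15 ± 0.16 (adjusted p = 8.98e-07) by edgeR, while CFIm68 overexpression was at -0.52 ± 0.21, which missed the threshold. CHGB (ENSG00000089199, chromosome 20, 5911430 to 5925361), chromogranin B, was at 5.08, 5.6 and 4.89 CPM in CFIm68 knockdown, 6.99 and 5.99 in CFIm25 knockdown, 4.81, 3.12 and 2.89 in CFIm68 overexpression and 13.2, 9.5 and 13.8 in CFIm25 overexpression. In control, CHGB was at 4.03, 5.02 and 4.6 CPM. CFIm25 overexpression again did not overlap with any other group. CHGB rose 2.68-fold in CFIm25 overexpression, 1.42 ± 0.15 (adjusted p = 5.57e-09) on the log2 scale by edgeR, and by 0.50 ± 0.17 (adjusted p = 0.0188) in CFIm25 knockdown, a call lost without replicate 1 of that group (adjusted p = 0.141, edgeR) or of the control (adjusted p = 0.0781).

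SCG3 (ENSG00000104112, chromosome 15, 51681353 to 51721031), secretogranin III, which helps to sort chromogranins into granules, moved in opposite directions in 2 of the groups. It was at 2.04, 2.22 and 1.86 CPM in CFIm68 knockdown, 3.4 and 3.41 in CFIm25 knockdown, 3.83, 4.01 and 4.39 in CFIm68 overexpression and 7.08, 5.71 and 8.87 in CFIm25 overexpression. In control, SCG3 was at 4.2, 4.42 and 4.6 CPM. The CFIm68 knockdown libraries were the lowest and the CFIm25 overexpression libraries the highest, with no overlap with control in either case. SCG3 fell 2.16-fold in CFIm68 knockdown, a log2 change of -1.11 ± 0.17 (adjusted p = 2.31e-06) by edgeR, and rose by 0.71 ± 0.14 (adjusted p = 0.000125) in CFIm25 overexpression. SCG5, the chaperone 7B2 of the prohormone convertase PC2, averaged 1.18 ± 0.411 CPM in CFIm68 knockdown, 1.28 ± 0.139 in CFIm25 knockdown, 0.996 ± 0.241 in CFIm68 overexpression, 0.924 ± 0.105 in CFIm25 overexpression and 1.09 ± 0.175 in control (SD, n = 3 each and 2 for CFIm25 knockdown), and its groups overlapped in every comparison. SCG2, secretogranin II, passed the threshold in no comparison.

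The promoter of SCG3 is shown because it holds both cores of RE1, the element bound by REST. The cores searched were CAGCACC and GGACAGC, on both strands, in the RefSeq promoter windows (GRCh38.p14) from 250 bases before to 50 after each start. CAGCACC was in 7.75% of all 35116 windows and in 4 of the 45 windows (8.89%) of the 25 genes with one (NLGN1, SCG3, SYT4 and SYN1). GGACAGC was in 6.03% of windows and in 2 of these 45 (4.44%; GAP43 and SCG3), so both shares were near the background. Both cores on 1 strand within 20 bases stood in 0.108% of windows, SCG3 among them. CAGCACC followed after 2 bases by GGACAG, as in SYN1, stood in 0.0513%, and these last 2 searches were chosen after the letters of the windows had been seen. SCG3 is on the plus strand and SYN1, which encodes synapsin 1, on the minus strand, and capitals mark the letters that match RE1 in each, read 5′ to 3′. A match is a description of the letters and not a measured site, and REST itself was listed at 0 in every library.
SCG3 (chr15:51681496-51681552, plus strand): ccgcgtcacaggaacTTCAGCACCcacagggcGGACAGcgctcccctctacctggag
SYN1 (chrX:47620046-47620105, minus strand): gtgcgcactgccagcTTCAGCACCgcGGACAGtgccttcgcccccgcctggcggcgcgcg

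Among proteins of the vesicle membrane and its fusion machinery, SYP and SYN1 showed the largest differences between groups. SYP (ENSG00000102003, chromosome X, 49187804 to 49200259), synaptophysin, a major membrane protein of synaptic vesicles, was at 8.28, 7.41 and 8.78 CPM in CFIm68 knockdown, 15.4 and 13.5 in CFIm25 knockdown, 7.93, 9.96 and 10.3 in CFIm68 overexpression and 31, 31.6 and 31.6 in CFIm25 overexpression. In control, SYP was at 10.9, 11.1 and 9.42 CPM. The CFIm25 overexpression libraries were the highest, the CFIm25 knockdown libraries came next, and those of CFIm68 knockdown lay under every control library. SYP rose 2.99-fold in CFIm25 overexpression (log2 1.58 ± 0.09, adjusted p = 4.63e-14, edgeR). It rose by 0.45 ± 0.11 (adjusted p = 0.00105) in CFIm25 knockdown and fell in CFIm68 knockdown, at -0.36 ± 0.11 (adjusted p = 0.00444) by edgeR. The knockdowns thus differed from each other, CFIm68 against CFIm25, by -0.81 ± 0.11 (adjusted p = 1.26e-06) in the same edgeR fit. An antisense gene, SYP-AS1, overlaps its exons, and no source used here says whether reads were counted by strand.

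SYN1 (ENSG00000008056, chromosome X, 47571898 to 47619943), synapsin 1, which tethers vesicles to the cytoskeleton and whose promoter is shown above, was at 1.09, 1.23 and 1.42 CPM in CFIm68 knockdown, 1.13 and 1.2 in CFIm25 knockdown, 0.52, 0.668 and 0.564 in CFIm68 overexpression and 1.8, 2.04 and 2.03 in CFIm25 overexpression. In control, SYN1 was at 1.25, 1.09 and 1.28 CPM. Its libraries in CFIm68 overexpression lay under all control libraries and those in CFIm25 overexpression above them, while both knockdowns overlapped with control. SYN1 fell 2.04-fold in CFIm68 overexpression (log2 -1.03 ± 0.29, adjusted p = 0.00809, edgeR) and rose 1.61-fold in CFIm25 overexpression (log2 0.69 ± 0.22, adjusted p = 0.00857), and it shares exon bases on its own strand with AL009172.2. SYN2 (ENSG00000157152, chromosome 3, 12004402 to 12191400), synapsin 2, was at 24.4, 25.2 and 25.4 CPM in CFIm68 knockdown, 18.4 and 19 in CFIm25 knockdown, 9.61, 8.02 and 9.03 in CFIm68 overexpression and 14.1, 15.7 and 14.8 in CFIm25 overexpression. In control, SYN2 was at 12.1, 12 and 14 CPM. Here the CFIm68 knockdown libraries were the highest and the CFIm68 overexpression libraries the lowest, and no group overlapped with control. SYN2 rose 1.96-fold in CFIm68 knockdown (log2 0.97 ± 0.08, adjusted p = 7.33e-11, edgeR), rose by 0.56 ± 0.09 (adjusted p = 1.58e-05) in CFIm25 knockdown, and fell in CFIm68 overexpression, at -0.52 ± 0.10 (adjusted p = 0.000194). Its change in CFIm25 overexpression was small, 0.22 ± 0.09 (adjusted p = 0.0368) by edgeR, and was lost without CFIm25 overexpression replicate 2 or 3, control replicate 1 or 2, or CFIm68 knockdown replicate 3 (adjusted p up to 0.132), with DESeq2 in place of edgeR (adjusted p = 0.0534) and with only the compared groups in the edgeR fit (adjusted p = 0.0668). The 50 tested genes nearest to SYN2 had a median log2 change of 0.25 in that comparison, and with neighbour medians removed the limma-voom value for SYN2 was -0.04.

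SYT11 (ENSG00000132718, chromosome 1, 155859509 to 155885199), an atypical synaptotagmin that does not bind calcium, was at 30.7, 33.6 and 34.7 CPM in CFIm68 knockdown, 18.7 and 19.5 in CFIm25 knockdown, 20.1, 23.2 and 17.6 in CFIm68 overexpression and 26.7, 28.8 and 25.2 in CFIm25 overexpression. In control, SYT11 was at 19.7, 21.4 and 22 CPM. The CFIm68 knockdown libraries were the highest. SYT11 rose 1.57-fold there (log2 0.65 ± 0.08, adjusted p = 1.38e-07, edgeR), and in CFIm25 overexpression it rose by 0.36 ± 0.09 (adjusted p = 0.000875). RAB3A (ENSG00000105649, chromosome 19, 18196784 to 18204074), the small GTPase of docked vesicles, was at 9.07, 9.05 and 9.55 CPM in CFIm68 knockdown, 7.49 and 8.59 in CFIm25 knockdown, 2.14, 3.84 and 3.95 in CFIm68 overexpression and 3.6, 5.54 and 4.46 in CFIm25 overexpression. In control, RAB3A was at 5.9, 6.06 and 5.99 CPM. Both knockdowns lay above control and both overexpressions below it, without overlap with control. RAB3A rose by 0.62 ± 0.14 (adjusted p = 0.000318) in CFIm68 knockdown and by 0.44 ± 0.15 (adjusted p = 0.019) in CFIm25 knockdown by edgeR, the second lost without CFIm25 knockdown replicate 2 (adjusted p = 0.213). It fell in CFIm68 overexpression (log2 -0.84 ± 0.17, adjusted p = 0.000488, edgeR) and in CFIm25 overexpression (log2 -0.42 ± 0.16, adjusted p = 0.0261), the second lost without CFIm25 overexpression replicate 1 (adjusted p = 0.216) or control replicate 2 or 3.

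The SNARE proteins themselves moved little. VAMP2, the vesicle SNARE, averaged 133 ± 4.77 CPM in CFIm68 knockdown, 125 ± 0.0542 in CFIm25 knockdown, 103 ± 3.68 in CFIm68 overexpression, 111 ± 4.66 in CFIm25 overexpression and 111 ± 9.71 in control (SD). VAMP2 shares 430 exon bases on its own strand with AC129492.3. It rose by 0.27 ± 0.06 (adjusted p = 0.000275) on the log2 scale in CFIm68 knockdown by edgeR, and by 0.17 ± 0.06 (adjusted p = 0.0306) in CFIm25 knockdown. The second call was lost without either CFIm25 knockdown library (log2 0.17 each, with 1 library left), without control replicate 1, or with the median of the 50 nearest tested genes removed (adjusted p = 0.29, limma-voom). STX1A, the syntaxin of the cell membrane, averaged 12.1 ± 1.05 CPM in CFIm68 knockdown, 10.6 ± 0.42 in CFIm25 knockdown, 14.7 ± 0.622 in CFIm68 overexpression, 11 ± 1.18 in CFIm25 overexpression and 13.8 ± 0.948 in control (SD). It fell in CFIm25 knockdown (log2 -0.38 ± 0.11, adjusted p = 0.0042, edgeR) and in CFIm25 overexpression (log2 -0.33 ± 0.10, adjusted p = 0.00598), the second lost with the median of the 50 nearest tested genes removed (log2 -0.16, adjusted p = 0.179, limma-voom), and its exons overlap BUD23 on the opposite strand. SNAP25, the third partner, averaged 1.24 ± 0.114 CPM in CFIm68 knockdown, 1.31 ± 0.201 in CFIm25 knockdown, 1.19 ± 0.141 in CFIm68 overexpression, 1.66 ± 0.17 in CFIm25 overexpression and 1.31 ± 0.35 in control (SD) and passed the threshold in no comparison. SYT1 and SYT4 had too few counts to test.

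**Figure D3:**
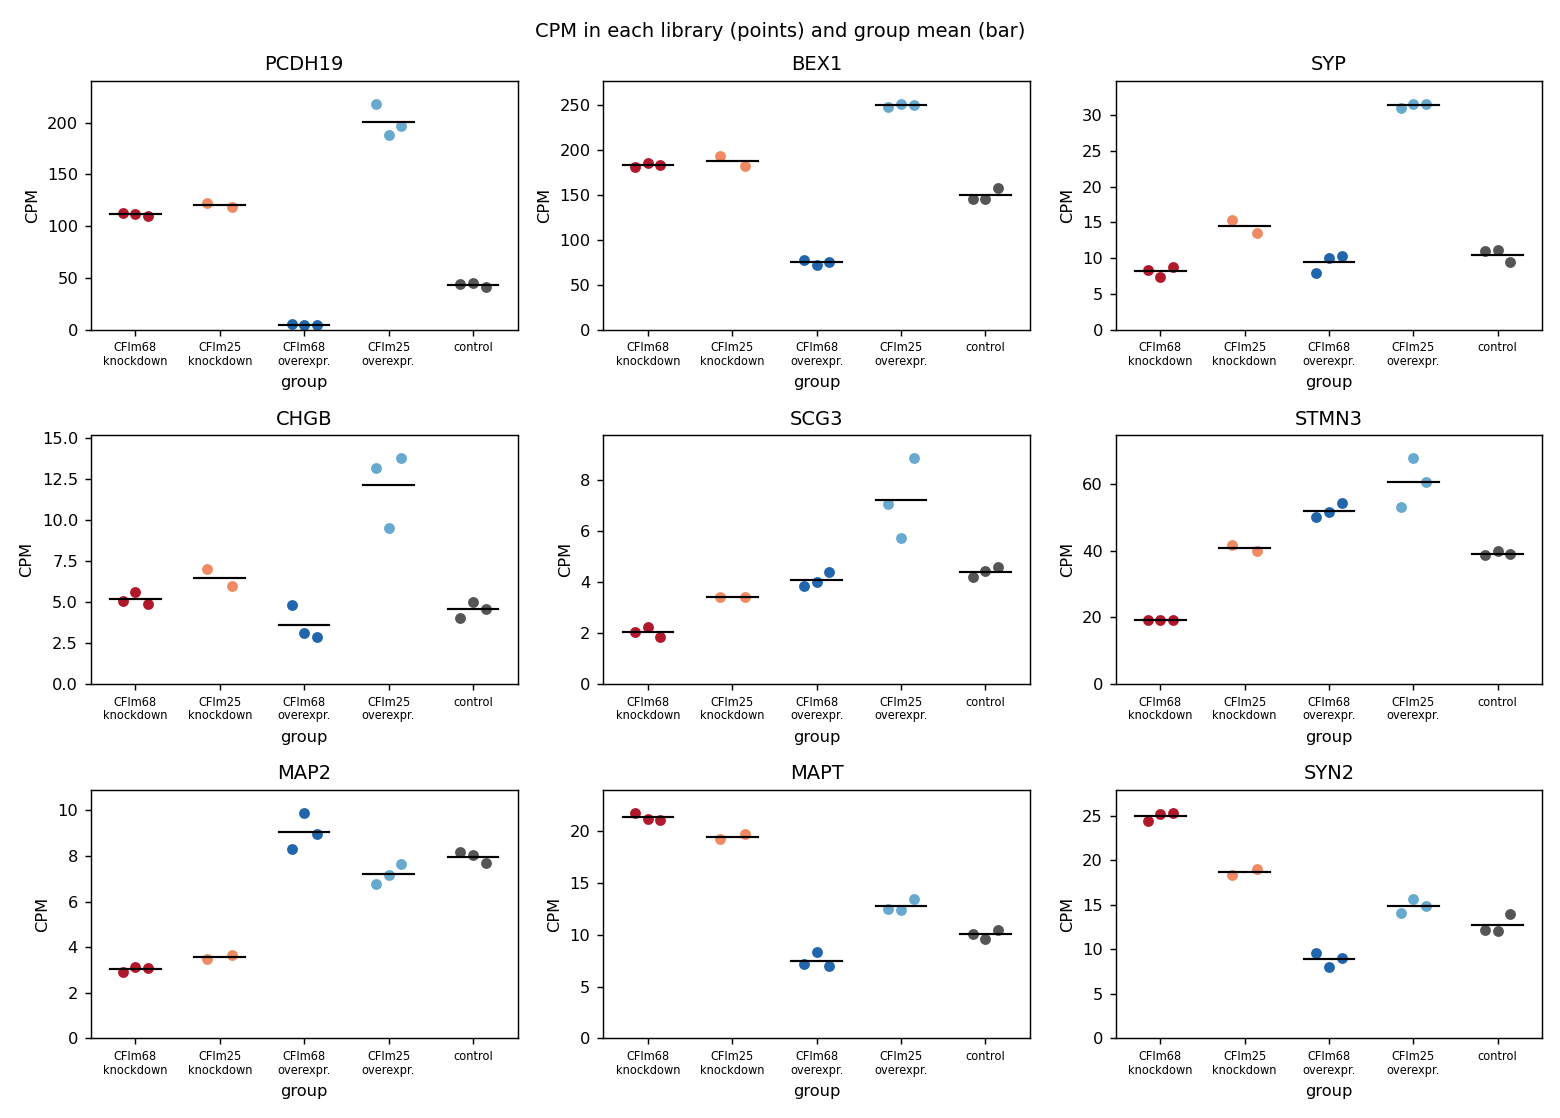
CPM in each library (points) and group mean (bar) of 9 of the genes, 1 panel per gene, each with its own linear axis from 0 and the 5 groups from left to right. The 3 CFIm25 overexpression libraries are the highest for PCDH19, BEX1, SYP, CHGB and SCG3, and the knockdown libraries are the lowest for MAP2 and the highest for MAPT and SYN2.

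Of the intermediate filament genes, NEFL and INA could be read at these depths. INA (ENSG00000148798, chromosome 10, 103277163 to 103290351), alpha-internexin, a filament protein of developing neurons, was at 14.6, 15 and 13.9 CPM in CFIm68 knockdown, 10.8 and 11.5 in CFIm25 knockdown, 6.76, 7.18 and 8.09 in CFIm68 overexpression and 14.6, 16.4 and 17.3 in CFIm25 overexpression. In control, INA was at 11.7, 13.8 and 11.4 CPM. CFIm68 overexpression lay under all the other groups, and CFIm25 overexpression and CFIm68 knockdown lay above all control libraries. INA fell 1.68-fold in CFIm68 overexpression (log2 -0.75 ± 0.11, adjusted p = 7.98e-06, edgeR) and rose by 0.38 ± 0.10 (adjusted p = 0.00137) in CFIm25 overexpression. Its change in CFIm68 knockdown, 0.23 ± 0.09 (adjusted p = 0.0368) by edgeR, was lost without CFIm68 knockdown replicate 1 or 2 or control replicate 1 or 3 (adjusted p 0.0924 to 0.154), and with DESeq2 (adjusted p = 0.0635). NEFL averaged 215 ± 8.03 CPM in CFIm68 knockdown, 302 ± 19.8 in CFIm25 knockdown, 209 ± 14.9 in CFIm68 overexpression, 239 ± 16.1 in CFIm25 overexpression and 276 ± 12.2 in control (SD). It fell in CFIm68 knockdown (log2 -0.36 ± 0.06, adjusted p = 5.37e-06, edgeR), in CFIm68 overexpression (log2 -0.40 ± 0.06, adjusted p = 6.28e-06) and in CFIm25 overexpression (log2 -0.21 ± 0.06, adjusted p = 0.00293), the last lost with the median of the 50 nearest tested genes removed (log2 -0.09, adjusted p = 0.245, limma-voom). NEFM, the medium chain, passed no comparison with control, and NEFH, the heavy chain, was not tested.

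Microtubule proteins gave some of the clearest changes in the knockdowns. MAP2 (ENSG00000078018, chromosome 2, 209424058 to 209734118), a microtubule-associated protein of dendrites, was at 2.93, 3.13 and 3.07 CPM in CFIm68 knockdown, 3.5 and 3.68 in CFIm25 knockdown, 8.32, 9.91 and 8.97 in CFIm68 overexpression and 6.78, 7.18 and 7.65 in CFIm25 overexpression. In control, MAP2 was at 8.17, 8.03 and 7.71 CPM. The libraries of both knockdowns lay under every other library. MAP2 fell 2.62-fold in CFIm68 knockdown (log2 -1.39 ± 0.12, adjusted p = 1.13e-10, edgeR) and 2.21-fold in CFIm25 knockdown (log2 -1.14 ± 0.13, adjusted p = 4.68e-08). MAPT (ENSG00000186868, chromosome 17, 45894382 to 46028334), the axonal microtubule protein tau, was at 21.7, 21.1 and 21 CPM in CFIm68 knockdown, 19.2 and 19.7 in CFIm25 knockdown, 7.15, 8.35 and 6.96 in CFIm68 overexpression and 12.5, 12.4 and 13.4 in CFIm25 overexpression. In control, MAPT was at 10.1, 9.61 and 10.5 CPM. Both knockdowns lay above control, CFIm25 overexpression lay between them and control, and CFIm68 overexpression lay under control, without overlap. MAPT rose 2.12-fold in CFIm68 knockdown (log2 1.08 ± 0.08, adjusted p = 1.2e-11, edgeR), 1.93-fold in CFIm25 knockdown (log2 0.95 ± 0.09, adjusted p = 2.65e-09) and 1.27-fold in CFIm25 overexpression (log2 0.34 ± 0.09, adjusted p = 0.00241). It fell in CFIm68 overexpression, at -0.42 ± 0.10 (adjusted p = 0.00236) by edgeR. The antisense gene MAPT-AS1 overlaps its exons.

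STMN3 (ENSG00000197457, chromosome 20, 63639705 to 63657682), a stathmin that destabilises microtubules, was at 19.2, 19.3 and 19.4 CPM in CFIm68 knockdown, 41.9 and 39.9 in CFIm25 knockdown, 50.3, 51.8 and 54.4 in CFIm68 overexpression and 53.3, 67.9 and 60.7 in CFIm25 overexpression. In control, STMN3 was at 38.7, 39.9 and 39.1 CPM. CFIm68 knockdown lay far under every other group, CFIm25 knockdown was close to control (log2 0.06 ± 0.08, which missed the threshold), and both overexpressions lay above control. STMN3 fell 2.03-fold in CFIm68 knockdown (log2 -1.02 ± 0.08, adjusted p = 4.28e-12, edgeR) and rose in CFIm25 overexpression (log2 0.62 ± 0.07, adjusted p = 1.91e-08) and CFIm68 overexpression (log2 0.41 ± 0.07, adjusted p = 7.39e-05). CFIm68 and CFIm25 knockdown differed by -1.08 ± 0.08 (adjusted p = 3.41e-11) in that edgeR fit. TUBB3, a beta-tubulin of neurons, averaged 3.02 ± 0.504 CPM in CFIm68 knockdown, 2.92 ± 0.404 in CFIm25 knockdown, 3.84 ± 0.295 in CFIm68 overexpression, 3.52 ± 0.586 in CFIm25 overexpression and 2.96 ± 0.135 in control (SD), passed the threshold in no comparison and shares exon bases with AC092143.1. GAP43, a growth cone protein at 1 to 21 counts per library, passed in CFIm25 knockdown (log2 1.26 ± 0.51, adjusted p = 0.0422, edgeR), but not without CFIm25 knockdown replicate 1 (adjusted p = 0.351), without any 1 of the control libraries or without CFIm68 knockdown replicate 1. It also missed the threshold with DESeq2 (adjusted p = 0.0846), with limma-voom (adjusted p = 0.0626) and with the median of the 50 nearest tested genes removed (adjusted p = 0.11, limma-voom).

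The last bases of MAP2, MAPT and SYT11 are shown as examples of genes that changed in a knockdown, SYT11 in CFIm68 knockdown only, and hold TGTA. It is written UGUA in RNA and is the motif that the cleavage factor binds. TGTA stood in the last 100 bases of the transcript sequence of 54.2% of 11914 tested genes and of 15 of the 26 tested genes of the list (57.7%), 1 annotated transcript per gene (GENCODE 29, GRCh38). That share was near the background. SYN2, VAMP2, STMN3, STX1A, NEFL, INA, ELAVL2, UCHL1 and BEX1 were also called in a knockdown against control and held TGTA there. PCDH19, SYP, SCG3, RAB3A, NLGN1, CHGB and GAP43 were called in a knockdown against control and held none. Each stretch below holds 30 bases of the plus strand, 5′ to 3′, with TGTA in capitals. The table holds counts per gene, so the use of these ends was not measured.
MAP2 (chr2:209734045-209734074): tcaaatttgcaaaTGTAtttgttgcTGTAt
MAPT (chr17:46028239-46028268): aatgtctatatagTGTAttgtgtgttttaa
SYT11 (chr1:155885108-155885137): ctaatctacaataTGTAatgctatctTGTA

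PCDH19, an adhesion protein of the protocadherin family whose loss causes an X-linked epilepsy, had the largest changes of the list in both overexpressions and in CFIm25 knockdown. It (ENSG00000165194, chromosome X, 100291644 to 100410273) was at 113, 112 and 109.5 CPM in CFIm68 knockdown, 122 and 118 in CFIm25 knockdown, 5.26, 4.56 and 4.77 in CFIm68 overexpression and 218, 188 and 197 in CFIm25 overexpression. In control, PCDH19 was at 43.8, 45.2 and 41.1 CPM. No group overlapped with control: CFIm25 overexpression was the highest, both knockdowns lay above control, and CFIm68 overexpression was far under every other group. PCDH19 rose 4.64-fold in CFIm25 overexpression (log2 2.21 ± 0.06, adjusted p = 7.28e-22, edgeR), 2.77-fold in CFIm25 knockdown (log2 1.47 ± 0.07, adjusted p = 6.03e-16) and 2.57-fold in CFIm68 knockdown (log2 1.36 ± 0.06, adjusted p = 1.14e-16). It fell 8.93-fold in CFIm68 overexpression (log2 -3.16 ± 0.09, adjusted p = 6.92e-21, edgeR). Among 12080 tested genes this was the 23rd highest change in CFIm25 overexpression and the 51st lowest in CFIm68 overexpression. The 50 tested genes nearest to it had median log2 changes of -0.23 in CFIm68 overexpression and 0.01 in CFIm25 overexpression.

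NLGN1 (ENSG00000169760, chromosome 3, 173396284 to 174286644), neuroligin 1, a postsynaptic adhesion protein, was at 6.68, 6.91 and 6.39 CPM in CFIm68 knockdown, 6.26 and 5.96 in CFIm25 knockdown, 2.99, 3.79 and 2.51 in CFIm68 overexpression and 5.62, 5.43 and 5.04 in CFIm25 overexpression. In control, NLGN1 was at 4.42, 5.13 and 4.71 CPM. CFIm68 overexpression was the lowest group and both knockdowns lay above control. NLGN1 rose in CFIm68 knockdown (log2 0.48 ± 0.13, adjusted p = 0.00168, edgeR) and fell in CFIm68 overexpression (log2 -0.61 ± 0.15, adjusted p = 0.00326). Its rise in CFIm25 knockdown (log2 0.36 ± 0.14, adjusted p = 0.0351, edgeR) was lost without replicate 1 or 2 of that group (log2 0.32 and 0.40, with 1 library left) and without control replicate 1 or 3 (adjusted p = 0.108 and 0.0699, edgeR). It was also lost with DESeq2 in place of edgeR (adjusted p = 0.0791), with the replicate number as a block (adjusted p = 0.0739, edgeR) and with the median of the 50 nearest tested genes removed (adjusted p = 0.123, limma-voom). ELAVL2 (ENSG00000107105, chromosome 9, 23690104 to 23826337), a neuronal relative of HuR that binds AU-rich messenger RNAs, was at 37.1, 35.5 and 37.7 CPM in CFIm68 knockdown, 32.8 and 27.7 in CFIm25 knockdown, 31.3, 30.3 and 28 in CFIm68 overexpression and 42.3, 36.8 and 40.9 in CFIm25 overexpression. In control, ELAVL2 was at 26.7, 28.2 and 28.4 CPM. CFIm68 knockdown and CFIm25 overexpression lay above all control libraries, and the other groups overlapped with control. ELAVL2 rose by 0.53 ± 0.07 (adjusted p = 7.76e-07) in CFIm25 overexpression and by 0.40 ± 0.07 (adjusted p = 3.04e-05) in CFIm68 knockdown by edgeR.

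BEX1 (ENSG00000133169, chromosome X, 103062651 to 103064240) was at 181, 186 and 184 CPM in CFIm68 knockdown, 193 and 182 in CFIm25 knockdown, 77.6, 71.6 and 75.2 in CFIm68 overexpression and 249, 252 and 250.1 in CFIm25 overexpression. In control, BEX1 was at 145, 145 and 158 CPM. CFIm68 overexpression lay under all the other groups and CFIm25 overexpression above them. BEX1 rose 1.67-fold in CFIm25 overexpression (log2 0.74 ± 0.05, adjusted p = 8.22e-13, edgeR) and fell 2-fold in CFIm68 overexpression (log2 -1.001 ± 0.05, adjusted p = 8.19e-15), and both knockdowns were higher, CFIm68 at 0.29 ± 0.05 (adjusted p = 1.31e-05) and CFIm25 at 0.33 ± 0.06 (adjusted p = 2.06e-05). BEX1 has a close paralog, BEX2, so counts could be split between them. UCHL1 averaged 332 ± 7.18 CPM in CFIm68 knockdown, 361 ± 3.71 in CFIm25 knockdown, 414 ± 21.2 in CFIm68 overexpression, 376 ± 0.312 in CFIm25 overexpression and 403 ± 16.4 in control (SD). It fell slightly in CFIm68 knockdown (log2 -0.28 ± 0.05, adjusted p = 1.21e-05, edgeR) and in CFIm25 knockdown (log2 -0.16 ± 0.05, adjusted p = 0.0164), the second lost without either CFIm25 knockdown library or control replicate 3 (adjusted p 0.0604 to 0.102).

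Since the comparisons with control share its libraries, unlike calls in them are not a test of a difference between groups. The difference between the CFIm68 and CFIm25 groups was tested in the direct fit. In CFIm68 against CFIm25 overexpression, PCDH19 was at -5.37 ± 0.08 (adjusted p = 3.73e-28), CHGB at -1.77 ± 0.16 (adjusted p = 1.42e-10), SYP at -1.74 ± 0.10 (adjusted p = 5.48e-15), BEX1 at -1.74 ± 0.05 (adjusted p = 2.75e-21) and SYN1 at -1.71 ± 0.26 (adjusted p = 1.73e-06), by edgeR. CHGA was at -1.67 ± 0.18 (adjusted p = 4.18e-09) and INA at -1.13 ± 0.11 (adjusted p = 3.18e-10) by edgeR. The 3 genes higher in CFIm68 than in CFIm25 overexpression were STX1A, MAP2 and UCHL1. Of these calls, MAP2 was lost without CFIm25 overexpression replicate 1 or CFIm68 overexpression replicate 2 and with the median of the 50 nearest tested genes removed (adjusted p = 0.199, limma-voom). UCHL1 was lost without CFIm68 overexpression replicate 1 and with only the compared groups in the fit (adjusted p = 0.0688, edgeR). Among the 17 lower calls, RAB3A was lost without CFIm68 overexpression replicate 1 or CFIm25 overexpression replicate 2 or 3, STMN3 without CFIm25 overexpression replicate 2, NEFL without CFIm68 overexpression replicate 3, and NEFM, at 1 to 25 counts per library, without replicate 1 or 3 of CFIm68 overexpression or 1 or 2 of CFIm25 overexpression. RAB3A was also lost with limma-voom (adjusted p = 0.0565), with only the compared groups (adjusted p = 0.0825, edgeR) and with the median of the 50 nearest tested genes removed (adjusted p = 0.139, limma-voom), as was STMN3 in the last setting (adjusted p = 0.0575, limma-voom). In CFIm68 against CFIm25 knockdown, the 4 genes called lower were STMN3, SYP, SCG3 at -0.74 ± 0.18 (adjusted p = 0.00313) and NEFL at -0.49 ± 0.06 (adjusted p = 1.31e-06) by edgeR. Those called higher were SYT11 at 0.79 ± 0.09 (adjusted p = 1.71e-07), SYN2 at 0.42 ± 0.08 (adjusted p = 0.000503), INA at 0.37 ± 0.10 (adjusted p = 0.0076) and ELAVL2 at 0.29 ± 0.08 (adjusted p = 0.00721) by edgeR, of which INA was lost without CFIm25 knockdown replicate 1 and ELAVL2 without CFIm25 knockdown replicate 2.

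**Figure D4:**
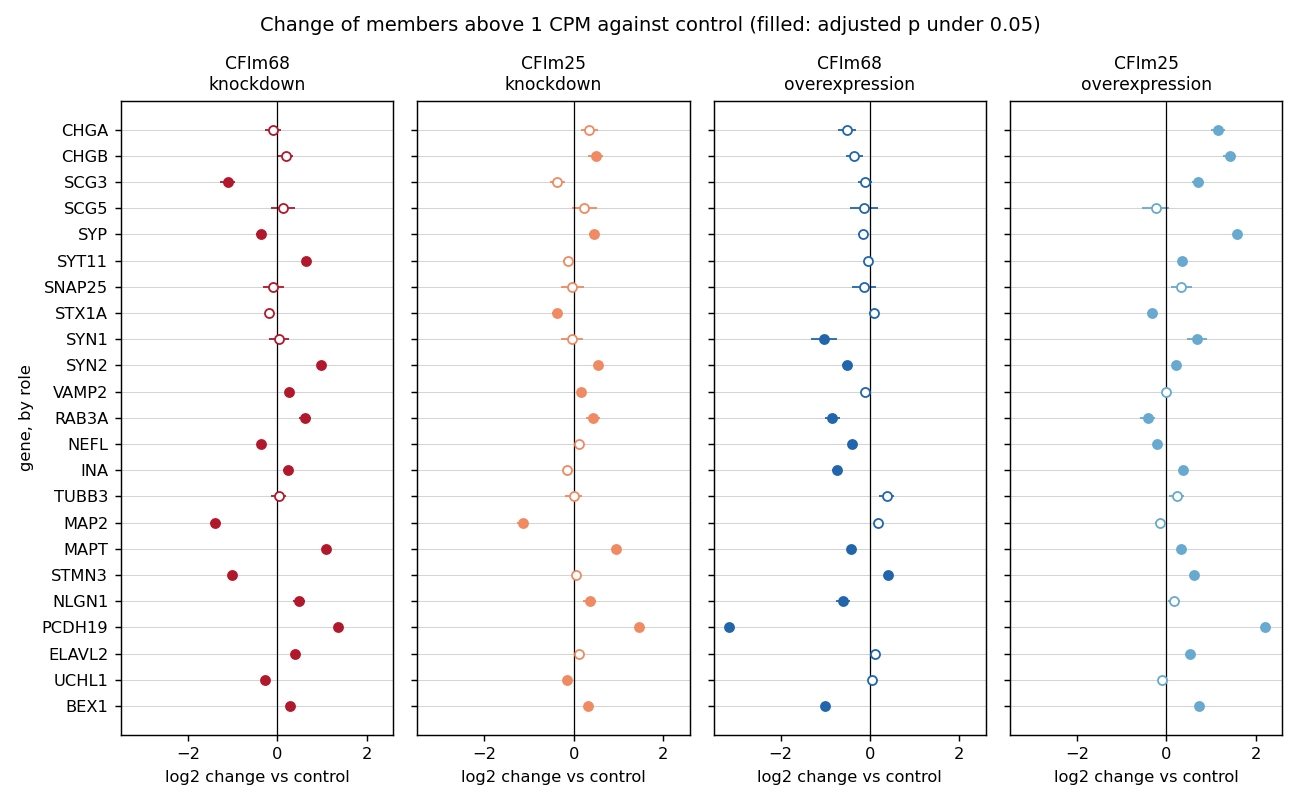
Log2 change against control of the 23 genes above 1 CPM in the 4 treated groups, 1 panel per group, with bars of 1 SE and filled points where edgeR's adjusted p was under 0.05. PCDH19 has the lowest point in CFIm68 overexpression and the highest in the other 3 panels.

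The other genes of these pathways were counted from lists fixed by name, also with earlier results known, as higher and lower calls against control, with the share of the list called in either direction in parentheses. Over all tested genes these shares were 56.4% in CFIm68 knockdown, 47.6% in CFIm25 knockdown, 29.8% in CFIm68 overexpression and 56.7% in CFIm25 overexpression. Of 41 other exocytosis genes, the calls were 18 higher and 9 lower in CFIm68 knockdown (65.9%), 16 higher and 6 lower in CFIm25 knockdown (53.7%), 4 higher and 6 lower in CFIm68 overexpression (24.4%) and 13 higher and 13 lower in CFIm25 overexpression (63.4%). These shares were within 10 percentage points of the background in each group. NAPG, a soluble factor that recycles SNAREs, rose by 1.03 ± 0.07 (adjusted p = 3.17e-13) in CFIm68 knockdown and by 0.81 (adjusted p = 9.84e-10) in CFIm25 knockdown by edgeR. SV2A, a vesicle glycoprotein, rose by 0.63 ± 0.05 (adjusted p = 7.5e-11) in CFIm68 knockdown and by 0.26 (adjusted p = 0.000631) in CFIm25 knockdown by edgeR. It was lower in CFIm25 overexpression at -0.18 (adjusted p = 0.00525) by edgeR. VAMP7, a SNARE of late endosomes, rose by 0.54 ± 0.07 (adjusted p = 4.53e-07) in CFIm25 overexpression, by 0.27 (adjusted p = 0.00259) in CFIm68 knockdown and by 0.42 (adjusted p = 8.3e-05) in CFIm25 knockdown by edgeR. It was lower in CFIm68 overexpression at -0.30 (adjusted p = 0.00502) by edgeR.

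Of 12 tested genes for peptide processing in granules, the calls were 3 higher and 3 lower in CFIm68 knockdown (50%), 1 higher and 4 lower in CFIm25 knockdown (41.7%), 4 higher and 2 lower in CFIm68 overexpression (50%) and 1 higher and 4 lower in CFIm25 overexpression (41.7%). The share was within 10 percentage points of the background in both knockdowns, under it in CFIm25 overexpression and above it in CFIm68 overexpression, in a list of only 12 genes. CPE, the carboxypeptidase that trims prohormones, fell in CFIm25 overexpression (log2 -0.40 ± 0.05, adjusted p = 5.58e-08, edgeR), where CHGA and CHGB rose, and in CFIm25 knockdown at -0.40 (adjusted p = 7.91e-07). CPE rose in CFIm68 overexpression (log2 0.22 ± 0.05, adjusted p = 0.000947, edgeR). PAM, the amidating enzyme, fell in CFIm25 overexpression (log2 -0.52 ± 0.07, adjusted p = 2.12e-07, edgeR) and in CFIm25 knockdown at -0.19 (adjusted p = 0.0315). FURIN, a convertase of the Golgi, fell in CFIm25 overexpression (log2 -0.48 ± 0.06, adjusted p = 1.74e-07, edgeR), in CFIm68 knockdown at -0.28 (adjusted p = 0.000205) and in CFIm25 knockdown at -0.24 (adjusted p = 0.00396). It rose in CFIm68 overexpression by 0.36 (adjusted p = 4.4e-05) by edgeR.

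Of 23 other neuronal cytoskeleton genes, the calls were 11 higher and 5 lower in CFIm68 knockdown (69.6%), 8 higher and 4 lower in CFIm25 knockdown (52.2%), 2 higher and 6 lower in CFIm68 overexpression (34.8%) and 5 higher and 10 lower in CFIm25 overexpression (65.2%). The share was above the background by more than 10 percentage points in CFIm68 knockdown and nearer to it in the other groups. CRMP1, a collapsin response mediator of axon guidance, rose by 1.97 ± 0.07 (adjusted p = 2.28e-19) in CFIm25 overexpression, by 0.72 (adjusted p = 9.58e-10) in CFIm68 knockdown and by 0.96 (adjusted p = 5.47e-11) in CFIm25 knockdown by edgeR. It fell in CFIm68 overexpression (log2 -0.79 ± 0.08, adjusted p = 2.07e-08, edgeR). DPYSL4, a relative of CRMP1, rose in CFIm25 overexpression (log2 1.22 ± 0.13, adjusted p = 6.85e-09, edgeR) and fell in CFIm68 overexpression (log2 -0.70 ± 0.16, adjusted p = 0.0014) and in CFIm68 knockdown at -0.38 (adjusted p = 0.0252). MARCKSL1, an actin regulator, fell in CFIm68 knockdown (log2 -0.68 ± 0.05, adjusted p = 2.09e-11, edgeR), in CFIm25 knockdown at -0.52 (adjusted p = 7.65e-08) and in CFIm25 overexpression at -0.40 (adjusted p = 3.64e-07). It rose in CFIm68 overexpression by 0.19 (adjusted p = 0.00904) by edgeR.

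Of 13 other neural adhesion genes, the calls were 6 higher and 3 lower in CFIm68 knockdown (69.2%), 2 higher and 3 lower in CFIm25 knockdown (38.5%), 2 higher and 2 lower in CFIm68 overexpression (30.8%) and 8 higher and 3 lower in CFIm25 overexpression (84.6%). The share was above the background in CFIm25 overexpression and CFIm68 knockdown and within 10 percentage points of it in CFIm68 overexpression and CFIm25 knockdown. PCDH10, a relative of PCDH19, fell in CFIm25 overexpression (log2 -4.08 ± 0.26, adjusted p = 1.54e-13, edgeR), where PCDH19 rose. It also fell in CFIm68 overexpression (log2 -1.89 ± 0.19, adjusted p = 1.68e-08, edgeR), in CFIm68 knockdown at -0.73 (adjusted p = 0.000161) and in CFIm25 knockdown at -1.06 (adjusted p = 1.46e-05), and so in all 4 comparisons with control. CNTN1, contactin 1, fell in CFIm25 overexpression (log2 -1.84 ± 0.08, adjusted p = 1.22e-16, edgeR) and rose in CFIm68 knockdown by 0.43 (adjusted p = 3.73e-06). PCDH7 fell in CFIm25 knockdown (log2 -0.71 ± 0.06, adjusted p = 3.44e-10, edgeR), in CFIm68 knockdown at -0.35 (adjusted p = 3.37e-06), in CFIm68 overexpression at -0.31 (adjusted p = 6.7e-05) and in CFIm25 overexpression at -0.31 (adjusted p = 1.7e-05).

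Of 13 other neuronal RNA-binding genes, the calls were 4 higher and 5 lower in CFIm68 knockdown (69.2%), 2 higher and 4 lower in CFIm25 knockdown (46.2%), 1 higher and 2 lower in CFIm68 overexpression (23.1%) and 5 higher and 3 lower in CFIm25 overexpression (61.5%). The share was above the background by more than 10 percentage points in CFIm68 knockdown and nearer to it in the other groups. NOVA2, a splicing regulator of neurons, rose by 1.13 ± 0.08 (adjusted p = 6.06e-13) in CFIm68 knockdown, by 0.999 (adjusted p = 1.52e-10) in CFIm25 knockdown and by 0.89 (adjusted p = 1.67e-10) in CFIm25 overexpression by edgeR. It fell in CFIm68 overexpression (log2 -0.81 ± 0.09, adjusted p = 9.27e-08, edgeR). Its relative NOVA1 rose in CFIm68 knockdown (log2 0.56 ± 0.08, adjusted p = 5.56e-07, edgeR), in CFIm25 knockdown by 0.60 (adjusted p = 1.28e-06) and in CFIm25 overexpression by 0.23 (adjusted p = 0.0161). NOVA1 fell in CFIm68 overexpression (log2 -0.73 ± 0.09, adjusted p = 4.4e-07, edgeR). MSI1, a translational regulator of neural progenitors, rose in CFIm68 overexpression (log2 0.34 ± 0.06, adjusted p = 0.000194, edgeR) and fell in CFIm68 knockdown at -0.18 (adjusted p = 0.0208) and in CFIm25 overexpression at -0.25 (adjusted p = 0.00198).

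Of 14 genes of the REST repressor complex, the calls were 6 higher and 4 lower in CFIm68 knockdown (71.4%), 4 higher and 7 lower in CFIm25 knockdown (78.6%), 1 higher and 2 lower in CFIm68 overexpression (21.4%) and 3 higher and 5 lower in CFIm25 overexpression (57.1%). The share was above the background in both knockdowns and within 10 percentage points of it in both overexpressions. Its deacetylases HDAC1 and HDAC2 and the methyltransferase EHMT2 fell in CFIm25 overexpression (HDAC1 log2 -0.56 ± 0.06, adjusted p = 2.1e-09, HDAC2 log2 -0.44 ± 0.05, adjusted p = 8.39e-08, EHMT2 log2 -0.48 ± 0.05, adjusted p = 1.17e-08, edgeR). The 3 also fell in CFIm25 knockdown, HDAC1 at -0.54 (adjusted p = 6.54e-08), HDAC2 at -0.15 (adjusted p = 0.0419) and EHMT2 at -0.35 (adjusted p = 1.59e-05) by edgeR. In CFIm68 knockdown HDAC1 fell at -0.45 (adjusted p = 9.64e-08) and EHMT2 at -0.29 (adjusted p = 2.69e-05) by edgeR, while HDAC2 missed the threshold at -0.10 (adjusted p = 0.113).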

How the data were processed

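RNA was measured by mRNA sequencing in 14 HEK 293 libraries. The authors deposited whole-number counts per gene, unnormalised, in one table. Trimming with cutadapt 1.16, alignment with STAR 2.7.1a and the build hg38 are named in the submitters' processing notes. No source used here names the counting tool, the annotation or the strand setting.

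Symbols, positions and exon lengths came from GENCODE 29, which matched 17708 of the 18006 IDs. Levels are CPM with TMM-scaled library totals (factors 0.973 to 1.05), or TPM over the genes of the table. Genes were filtered with filterByExpr (count minimum 10, total 15), leaving 12080. All 14 libraries entered one edgeR 4.0.16 quasi-likelihood fit (R 4.3.3) with a coefficient per group and Benjamini-Hochberg adjustment over all tested genes at 0.05, tested on simulated data. Groups came from sample titles. Limits for a count of 0 cover counting error only.

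The 35 genes and all lists were chosen with earlier results of these data known. Values in every library are given for genes averaging at least 1 CPM that passed the threshold somewhere with an absolute log2 change of at least 0.5. From each further list the 3 genes with the smallest adjusted p are named. The alternatives tried were no filter, a filter at 1 CPM, scaling by median-ratio size factors, DESeq2 1.42.0, limma-voom (limma 3.58.1), only the compared groups, a replicate block, neighbour medians removed and each library left out.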

Additional observations from a re-analysis of the deposited data

Results flagged for a closer look

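In 7 genes the CFIm68 and CFIm25 groups of the same kind of treatment differed, by the direct edgeR test, and were called against control in opposite directions. The same held for 0.911% of all 12080 tested genes in the knockdowns and for 11.9% in the overexpressions, and the comparisons share the control libraries. The overexpressions were unequal in size: NUDT21 averaged 729 CPM in CFIm25 overexpression against 514 in control, and CPSF6 730 CPM in CFIm68 overexpression against 268. Each knockdown also changed the other subunit. NUDT21 was also called higher in CFIm68 overexpression (597 CPM) by edgeR, while CPSF6 was not called in CFIm25 overexpression (252 CPM). The differences are thus between groups and not between the subunits alone. SYP was higher in CFIm25 knockdown and lower in CFIm68 knockdown, and CFIm68 against CFIm25 knockdown gave a log2 difference of -0.81. Between the overexpressions, CFIm68 against CFIm25, the log2 differences were -5.37 for PCDH19, -1.74 for BEX1, -1.71 for SYN1, -1.13 for INA, -0.76 for MAPT and -0.74 for SYN2. The SYN2 call in CFIm25 overexpression against control is not stable: it was lost with DESeq2 (adjusted p = 0.0534), with only the compared groups in the edgeR fit (adjusted p = 0.0668) and without any 1 of 5 libraries, and its log2 change turned to -0.039 in limma-voom with the median of the 50 nearest tested genes removed. In the 6 genes that differed between the overexpressions all CFIm68 overexpression libraries lay under all control libraries and all CFIm25 overexpression libraries above them. These genes were picked by opposite calls against control, so the separation adds no further evidence. The share of all tested genes separated in this way was not counted. For SYN2 the gap was narrow, 14.11 CPM in CFIm25 overexpression replicate 1 against 14.03 in control replicate 3. PCDH19, BEX1, SYP and SYN1 lie on the X chromosome, whose 419 tested genes had a median log2 change of -0.01 in CFIm68 against CFIm25 overexpression. The 50 tested genes nearest to each had medians of -0.43 for PCDH19, -0.39 for BEX1, 0.10 for SYP and 0.10 for SYN1 in that comparison. No sample was set apart within a group, since groups of 2 or 3 libraries cannot be examined for that.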

How the results depend on the processing

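Over 1222 values of single genes under other settings, 1191 kept their side of the threshold, 18 lost the call and 12 gained one. Changes of sign between values that were both not called were not counted. Of the values called in either fit, 1 changed sign: SYN2 in CFIm25 overexpression was at -0.039 (adjusted p = 0.749, limma-voom) when the median of the 50 nearest tested genes was removed, a setting chosen after seeing the data. Of 2184 values with 1 library left out, 2126 kept their side of the threshold, 44 lost the call and 14 gained one. No value called in either fit changed sign. Over those fits the genes of the list called in CFIm25 knockdown ranged from 8 to 14 (13 with all libraries), and all genes called in CFIm68 against CFIm25 knockdown from 1465 to 3344 (2929), both lowest without CFIm25 knockdown replicate 1, which leaves that group with 1 library, assumed to vary like the others. The labels do not say that replicate numbers pair libraries: over 26 pairs with the same number, deviations from the group means correlated at -0.063 to 0.171 (median 0.020), and 9 of 14 libraries correlated best with their own number. With the replicate number as a block, 17 genes of the list were called in CFIm68 knockdown, 12 in CFIm25 knockdown, 11 in CFIm68 overexpression, 17 in CFIm25 overexpression, 8 in CFIm68 against CFIm25 knockdown and 20 in CFIm68 against CFIm25 overexpression, against 16, 13, 10, 16, 8 and 20 without it. Depth limits the genes at or under 1 CPM.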
